A study of Homo sapiens with 6 samples.

Results

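This account covers 9 human genes that encode receptor-type protein tyrosine phosphatases: PTPRT, PTPRM, PTPRK, PTPRU, PTPRD, PTPRG, PTPRS, PTPRF and PTPRE. They were chosen by name from 20037 protein-coding genes of a RefSeq table (GRCh38.p14), in which all 9 symbols were found, and PTPRN2 was left out. A site of thymidine glycol (Tg), the main oxidised form of thymidine in DNA, was assigned to a gene when its midpoint lay in the gene body. This gave 3 of the 3688 wild-type sites and 21 of the 9373 double-knockout sites. The study mapped Tg by DPC-Seq in HEK293T, a cell line derived from human embryonic kidney, in which NTHL1 protein is tied covalently to DNA at the damaged base and the bound fragments are sequenced. The untreated cells were either wild type or NTHL1-/-,NEIL1-/- (the double knockout), so that only the second group lacked these 2 DNA glycosylases. Each genotype had 2 libraries of NTHL1-labelled DNA and 1 input library. Whether the knockout line is a single clone is not given in the sources used here. For each genotype the authors deposited a single list of sites. Replicate spread is therefore unknown for every value, and no test between the genotypes can be made. The lists hold DNA positions and no transcript levels, so the genotype and cell labels could not be checked against marker genes.

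Receptor-type tyrosine phosphatases span the cell membrane and, as a class, remove phosphate groups from tyrosines inside the cell, opposing tyrosine kinases. Their extracellular parts set the subgroups. PTPRT, PTPRM, PTPRK and PTPRU carry a MAM domain, and several of them bind copies of themselves on neighbouring cells. PTPRD, PTPRS and PTPRF form the LAR group, which carries immunoglobulin-like and fibronectin domains and organises synapses. PTPRG has a domain resembling carbonic anhydrase, and PTPRE has a short extracellular part. Many of these genes are very long, so a mark scattered over the genome falls inside one more often than inside a short gene.

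The wild-type sites fell in 3 genes, PTPRU, PTPRG and PTPRF, with 1 site each. The double-knockout sites fell in 7 genes: 8 in PTPRT, 4 each in PTPRU and PTPRS, 2 in PTPRG and 1 each in PTPRD, PTPRF and PTPRE. PTPRM and PTPRK held no site in either list. A list holds only sites that passed the authors' calling, so a gene without a site has none past that threshold. The share of protein-coding genes with any site was 5.88% by the wild-type list and 14% by the double-knockout list. It was 8.87% for a double-knockout site without any wild-type site, the state of 4 of the 9 genes (PTPRT, PTPRS, PTPRD and PTPRE). That 8.87% covers genes of every length, and was not matched to the length of the 9. Of the 20037 protein-coding genes 3356 were at least 100 kb long, as were 8 of the 9. Among protein-coding genes of at least 100 kb the shares with any site were 16.2% and 36.3%, and 2 and 6 of the 8 phosphatase genes held one. Among the 315 genes of at least 500 kb the shares were 28.6% and 54.6%, and 1 and 3 of the 5 phosphatase genes of that length held one. The caller's lowest background per base of fragment, which moves with depth, exceeded that of the wild-type list 1.61 times in the double knockout. Total reads are unknown. Reads and background of the double knockout were scaled down by 1.69, the ratio of depth times fragment length. After that 18 of the 21 double-knockout sites still reached the lowest −log10 p of the wild-type list.

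Together the 9 genes span 6.09 Mb. The number expected in them was taken from the sites per base of each gene's chromosome, with its length measured to the last annotated gene or site. In wild type the 3 sites (exact 95% Poisson interval 0.619 to 8.77, counting error only) compared with 7.84 expected, a ratio of 0.383 (0.0789 to 1.12). In the double knockout the 21 sites (13.0 to 32.1) compared with 19.8, a ratio of 1.06 (0.655 to 1.62). Both intervals held 1. Without PTPRT the double-knockout sites numbered 13, a ratio of 0.944. With sites of fold enrichment under 5 left out, the 9 genes kept 3 wild-type and 7 double-knockout sites. The ratios were then close, 0.688 (0.142 to 2.01) in wild type and 0.706 (0.284 to 1.45) in the double knockout. All 9 genes lay more than 5 Mb inside the annotated span of their chromosomes, whereas 27.2% of the wild-type list and 18.4% of the double-knockout list fell in those outer 5 Mb. Against the rate of the chromosome interiors alone the ratios were 0.484 and 1.17.

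**Figure D1:**
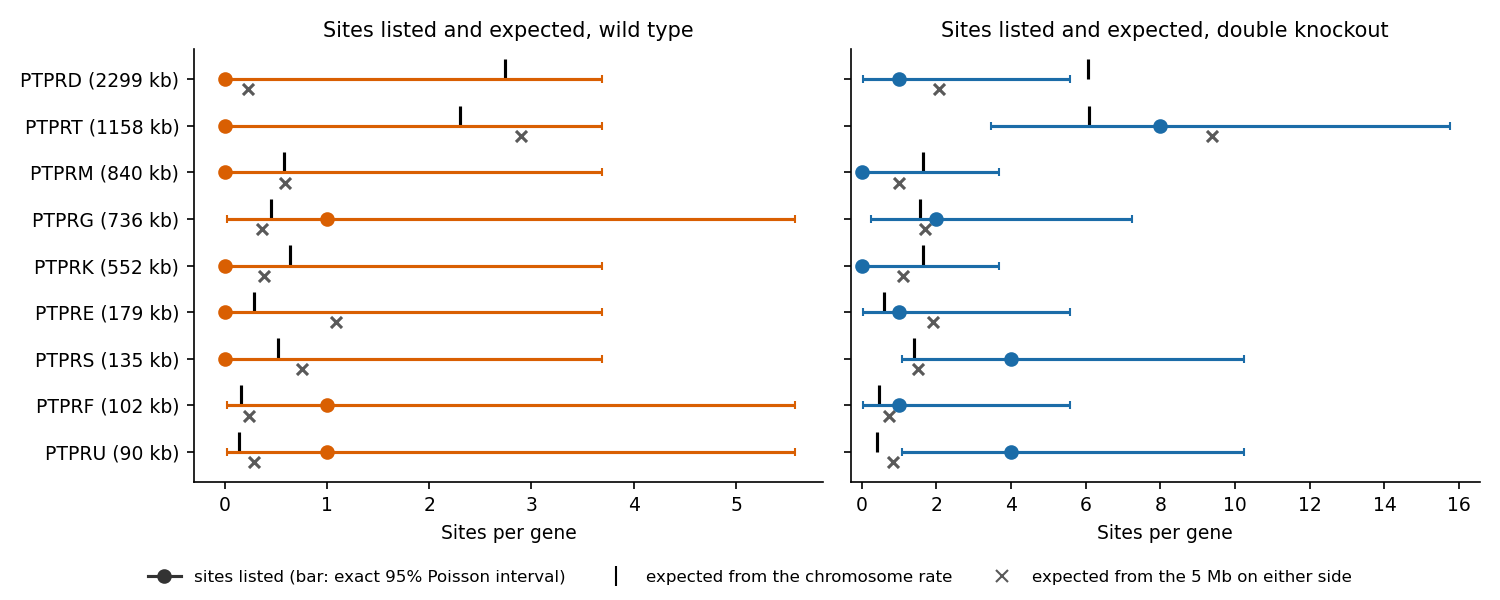
Number of sites in each gene (points, with exact 95% Poisson intervals as bars) for wild type on the left and double knockout on the right, beside the number expected from the chromosome rate (vertical ticks) and from the 5 Mb on either side of the gene (crosses). PTPRD has 1 double-knockout site where its chromosome would give 6.05, and PTPRU has 4 where its chromosome would give 0.407.

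Among the 9 genes the longest did not hold the most sites. The 5 genes of at least 500 kb (PTPRD, PTPRT, PTPRM, PTPRG and PTPRK) made up 5.58 Mb and held 11 double-knockout sites, 1.97 per Mb, where their chromosomes would give 17.0. The 4 genes shorter than 200 kb (PTPRE, PTPRS, PTPRF and PTPRU) made up 0.506 Mb and held 10, which is 19.8 per Mb, where their chromosomes would give 2.87. All protein-coding genes of at least 500 kb pooled held 2.21 double-knockout sites per Mb, and the 2310 of 90 to 200 kb held 3.25 per Mb. The short phosphatase genes also lay in site-rich surroundings. From the 5 Mb on either side of each gene, 5.00 sites would fall in the short genes and 15.3 in the long ones. The ratio of sites to expected in the short genes was thus 3.48 (1.67 to 6.40) against chromosomes and 2.0 (0.959 to 3.68) against neighbouring DNA, and the second counting interval held 1. Without PTPRS these ratios were 4.09 (1.5005 to 8.90) and 1.72 (0.632 to 3.75). PTPRU alone held 4 of the 10 sites, where its chromosome would give 0.407 and the 5 Mb on either side 0.849. The ratios without PTPRU were not computed, so how far they rest on that gene is not shown. The length classes were set with the counts known, so these intervals are a description. In wild type the long genes held 1 site (6.73 from the chromosomes) and the short genes held 2 (1.12).

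**Figure D2:**
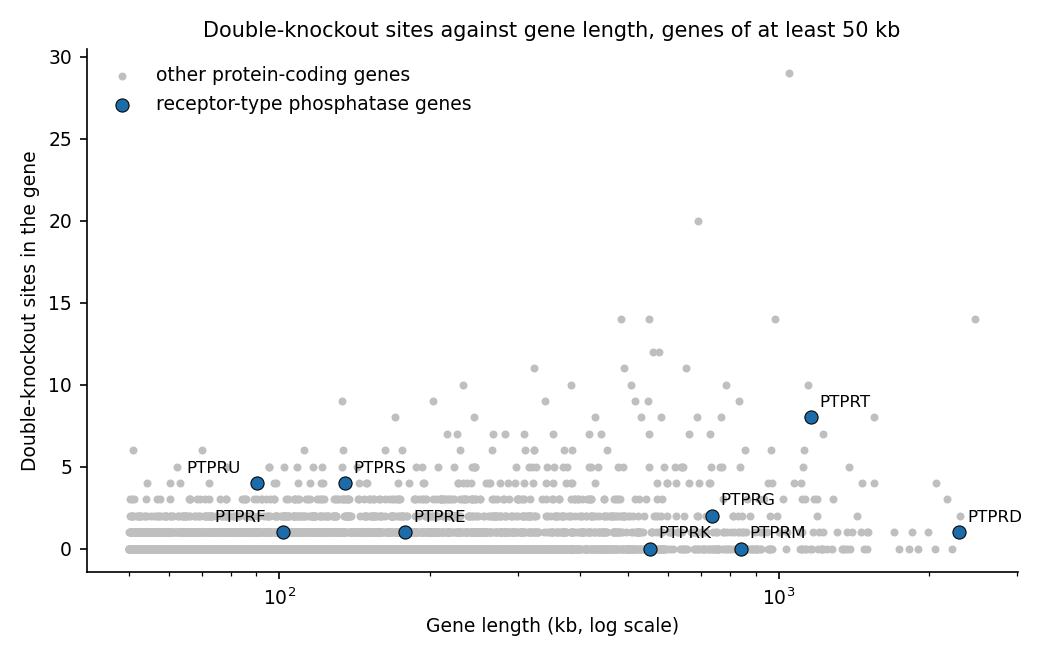
Double-knockout sites per gene (vertical axis) against gene length in kb on a log axis (horizontal), for protein-coding genes of at least 50 kb, with the 9 phosphatase genes named in blue. PTPRT stands highest of the 9 with 8 sites, while the longer PTPRD has 1 and PTPRU and PTPRS have 4 each.

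PTPRT encodes a MAM-domain phosphatase found mainly in the nervous system and known to dephosphorylate STAT3. It held the most sites of the 9 genes, 8 in the double knockout (3.45 to 15.8) and 0 in wild type. The gene lies on the minus strand of chromosome 20, from 42031890 to 43189906, and is 1158 kb long. The rate of its chromosome would give 6.08 double-knockout and 2.30 wild-type sites, and the 5 Mb on either side would give 9.38 and 2.90. The double-knockout number was therefore between the values of the chromosome and of the surroundings, and the wild-type number was below both, with an upper counting limit of 3.69 that holds both.

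No other protein-coding gene without a wild-type site held as many double-knockout sites as PTPRT. The next in that order each held 6: COL5A3, a collagen chain gene of 50.9 kb, COPG2, a coatomer subunit gene of 163 kb, and RALGAPA2, a regulator of Ral proteins of 323 kb. The likeness is only that of 2 numbers, 1 from each list. In all, 32 protein-coding genes (0.16%) held at least 8 double-knockout sites. The other 31 of them held 1 to 24 wild-type sites, median 4. Among genes of at least 500 kb, 6.67% held at least 8 double-knockout sites. PTPRT was chosen with this pattern known, so its place in the order is a description.

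The 8 PTPRT sites were spread over 1018 kb of the gene, with 42.4 to 411 kb between neighbours (median 82.9 kb). Counted from the gene start, they lay at 11.2, 94.1, 137, 231, 310, 536, 947 and 1029 kb, so that 6 of 8 were in its first 50%. In the same order their fold enrichments over the caller's background were 6.66, 3.43, 4.98, 4.75, 4.68, 7.76, 4.22 and 3.96. Reads at the summit, recovered from fold and p, were 14, 12, 11, 12, 13, 21, 15 and 8. The site at 536 kb (42654129 to 42654561) was the strongest, with a −log10 q of 11.8 and rank 1132 in the list. The site at 11.2 kb (43178519 to 43178866) came next with a −log10 q of 7.55. These 2 and the site at 137 kb exceeded the list's median fold of 4.93. The other 5 were below it. The nearest wild-type site to any of them was 273 kb away, beyond the gene.

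PTPRU, which encodes a MAM-domain family member also known as PCP-2 that associates with beta-catenin, was the densest of the 9 genes. It spans 90.3 kb of the plus strand of chromosome 1 (29236522 to 29326800) and held 4 double-knockout sites, 4.43 per 100 kb, and 1 wild-type site. At least 4 double-knockout sites, as in PTPRT, PTPRU and PTPRS, were held by 0.868% of protein-coding genes. Its chromosome would give 0.407 and 0.143, and the 5 Mb on either side 0.849 and 0.289. All 4 double-knockout sites lay towards its start, with midpoints 0.529, 4.74, 20.6 and 31.5 kb into the gene. Their folds were 5.02, 4.89, 2.91 and 3.77, with 22, 16, 17 and 12 reads. The rest of the gene held none. Backgrounds under the PTPRU sites were 1.96 to 4.14 times the lowest of the double-knockout list.

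The first PTPRU site (29236903 to 29237200) began 381 bases after the gene start and was the only double-knockout site of the 21 within 1 kb of a start. It was absent from the wild-type list, whose own PTPRU site was 4.34 kb further along. That wild-type site (29241272 to 29241518, fold 5.29, 12 reads) lay wholly inside the second double-knockout site (29240990 to 29241539). The gene next to PTPRU on the lower side, MECR, a mitochondrial fatty acid synthesis gene, held 1 double-knockout and 0 wild-type sites.

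The bases just before the start are shown for PTPRT, which held the most sites, and for PTPRU, whose first site was closest to a start. Each is the 250 bases upstream of the start on the gene's own strand, 5′ to 3′, from RefSeq (GRCh38.p14), with thymines in capitals because thymidine is the base that Tg derives from. PTPRT is at chr20:43189907-43190156 on the minus strand and PTPRU at chr1:29236272-29236521 on the plus strand.
PTPRT: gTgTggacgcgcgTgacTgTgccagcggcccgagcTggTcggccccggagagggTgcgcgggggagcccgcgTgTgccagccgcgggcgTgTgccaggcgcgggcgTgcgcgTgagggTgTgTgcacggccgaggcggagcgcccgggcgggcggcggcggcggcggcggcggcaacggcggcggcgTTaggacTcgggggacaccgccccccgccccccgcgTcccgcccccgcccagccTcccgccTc
PTPRU: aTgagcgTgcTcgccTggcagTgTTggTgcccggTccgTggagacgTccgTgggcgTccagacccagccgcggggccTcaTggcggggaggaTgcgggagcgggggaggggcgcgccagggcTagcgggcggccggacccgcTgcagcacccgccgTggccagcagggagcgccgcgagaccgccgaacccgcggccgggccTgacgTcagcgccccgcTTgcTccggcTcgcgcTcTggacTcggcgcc
Of the 250 bases 23 were thymine and 20 adenine in PTPRT, and 28 and 28 in PTPRU. A and T together made up 17.2% and 22.4%, against a median of 42.0% over the 35116 windows of the table. Across the 9 genes the share ran from 17.2% in PTPRT to 34.0% in PTPRF, median 22.4%. The start used for PTPRF lay 8832 bases inside the gene body. The letters GGGCGG, the core of a GC box, were found on either strand in 7 of 9 windows and in 42.6% of all windows. With overlapping copies counted as 1, they occurred 5 times in PTPRT and 1 time in PTPRU. TATAAA was in none of the 9 and in 10.7% of all windows. No site of either list overlapped any of the 15 promoter windows of 300 bases that the table holds for the 9 genes. Over all windows of that length, 0.0968% overlapped a wild-type and 0.222% a double-knockout site.

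PTPRM and PTPRK, the remaining MAM-domain genes, encode adhesion receptors that bind their own kind between cells. PTPRM (chromosome 18, 7567316 to 8406856, 840 kb) had 0 sites where its chromosome would give 0.586 wild-type and 1.65 double-knockout sites. PTPRK (chromosome 6, 127968785 to 128520599, 552 kb) had 0 where 0.637 and 1.63 would be given. With such low expected numbers, 0 sites was within counting error for both genes. Of protein-coding genes of at least 500 kb, 43.5% held no site in either list. Their surroundings were also thinly marked, with 12 double-knockout sites in the 5 Mb on either side of PTPRM and 20 around PTPRK. The 4 MAM-domain genes together held 1 wild-type and 12 double-knockout sites, where their chromosomes would give 3.67 and 9.77.

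**Figure D3:**
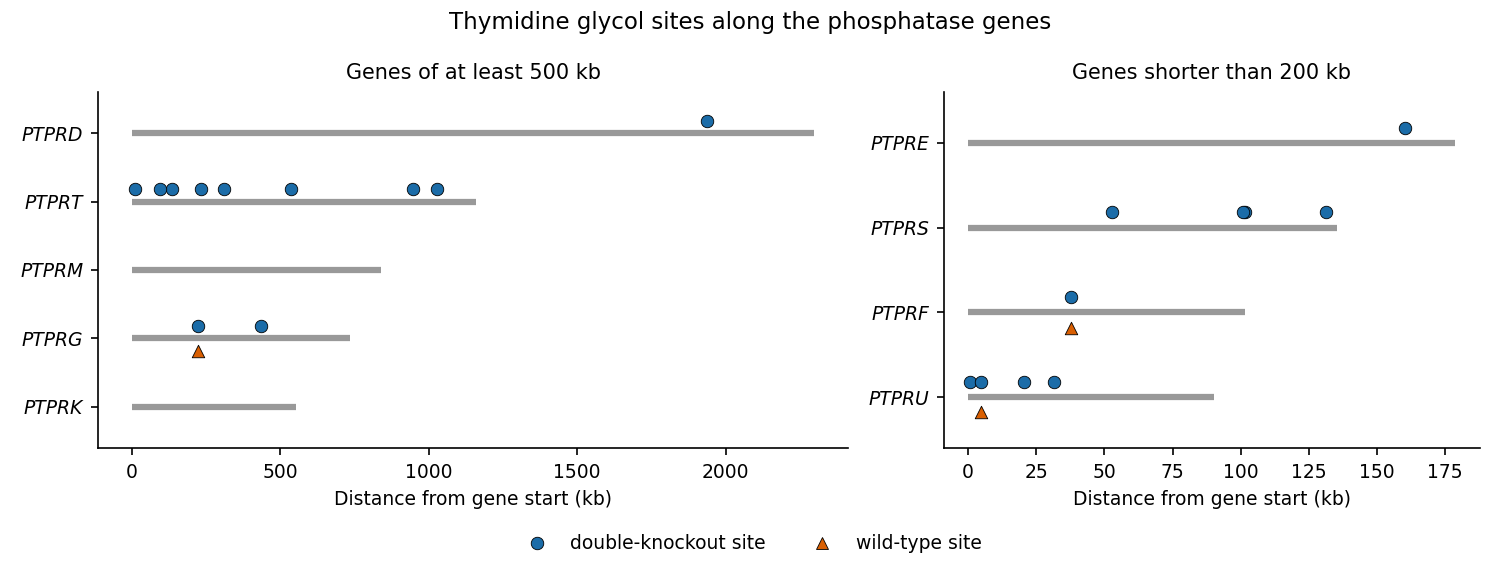
Double-knockout sites (blue circles, above the line) and wild-type sites (orange triangles, below) along each gene, drawn as a grey bar from its start, by distance in kb, for genes of at least 500 kb on the left and shorter than 200 kb on the right. The 8 PTPRT sites are spread over 1018 kb, the 4 PTPRU sites have their midpoints within 31.5 kb of its start, and each wild-type triangle has a double-knockout circle above it.

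In the LAR group the 2 short genes carried 5 of the 6 double-knockout sites. PTPRD, a synaptic organiser often deleted in glioma, is the longest of the 9 and the third longest protein-coding gene of the table (chromosome 9, 8314246 to 10613002, 2299 kb, minus strand). It held 1 double-knockout site, at 8675473 to 8675775 in the last part of the gene (fold 4.63, 11 reads), and no wild-type site. Its chromosome would give 6.05 and 2.74. The upper counting limits, 5.57 and 3.69, were below the first value and above the second. The surroundings were poor as well, with 9 double-knockout sites and 1 wild-type site in the 5 Mb on either side, a rate that would give 2.07 and 0.230 in the gene.

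PTPRS, a receptor for heparan and chondroitin sulfate proteoglycans that acts in axon growth, held 4 double-knockout sites and no wild-type site. It covers 135 kb on the minus strand of chromosome 19 (5205508 to 5340812), a site-rich chromosome, which would give 1.404 and 0.524. The 5 Mb on either side would give 1.52 and 0.758. From the gene start the sites lay at 52.7, 101.0, 101.5 and 131 kb, with folds of 6.43, 3.99, 3.82 and 5.45 and 20, 16, 15 and 24 reads. The middle pair was only 0.508 kb apart by midpoint, so that 3 separate places in the gene were marked. The last of them (5208682 to 5210215) was 1534 bp wide, the broadest site in the 9 genes, against a list median of 409 bp. The nearest wild-type site to any of the 4 was 237 kb away.

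PTPRF, the LAR phosphatase itself, acts at synapses and in insulin receptor signalling, and held the site with the lowest q of the 9 genes in both lists. The gene covers 102 kb of chromosome 1 (43522051 to 43623666, plus strand). Its 1 wild-type site (43559343 to 43560386) had a fold of 8.04, 24 reads and a −log10 q of 13.1, rank 164 of 3688. Its 1 double-knockout site (43559395 to 43560256) lay entirely within it, with a fold of 6.32, 28 reads and a −log10 q of 12.1, rank 1028 of 9373. KDM4A, a histone demethylase gene that follows PTPRF, held 1 site in each list. The 3 LAR-group genes together held 1 and 6 sites, where their chromosomes would give 3.43 and 7.91.

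PTPRG, a receptor of contactins, held 1 wild-type and 2 double-knockout sites in 736 kb of chromosome 3 (61561571 to 62297609, plus strand). Its chromosome would give 0.457 and 1.56. The wild-type site (61783491 to 61783736, fold 7.05, 12 reads) lay inside a double-knockout site (61783444 to 61783987, fold 5.93, 14 reads), 222 kb from the gene start. The other double-knockout site, at 434 kb, was weaker, with a fold of 3.83 and 12 reads. FHIT, the fragile-site gene 310 kb before PTPRG, is 1504 kb long and held 1 double-knockout and 0 wild-type sites.

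PTPRE, which also exists as a cytoplasmic form, held 1 double-knockout site and no wild-type site in 179 kb of chromosome 10 (127907103 to 128085855, plus strand). That site (128067083 to 128067377) had the lowest −log10 p of the whole double-knockout list, 3.31, with a q of 0.0489, a fold of 2.29 and 15 reads on a background 4.78 times the lowest. It was therefore at the limit of calling. The 5 Mb on either side held 106 double-knockout sites, which would give 1.89 in the gene, and MKI67, the next gene, which encodes the proliferation marker Ki-67, held 3 in 29.8 kb.

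Each of the 3 wild-type sites had at least 1 bp in common with a double-knockout site, against 75.3% of the whole wild-type list. With 3 sites the exact Clopper-Pearson interval of that share is 29.2% to 100%. Of the 21 double-knockout sites 3 (14.3%, 3.05% to 36.3%) were shared, against 28.3% of the whole list, a value inside the interval. When an overlap of at least 50% of both sites was required, only the PTPRF pair was shared (33.3% of the wild-type sites and 4.76% of those in the double knockout), because the double-knockout sites in PTPRU and PTPRG were 550 and 544 bp wide and the wild-type sites 247 and 246 bp. Double-knockout reads divided by 1.69, the ratio of depth times fragment length, came to 9.45 in PTPRU, 8.27 in PTPRG and 16.5 in PTPRF, against 12, 12 and 24 wild-type reads. The ratios were 0.788 (0.3497 to 1.82), 0.689 (0.296 to 1.63) and 0.689 (0.385 to 1.24). All 3 were below 1, and each counting interval held 1. Over all 2812 overlapping pairs of the lists the median ratio was 0.939.

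The 18 unpartnered double-knockout sites were set against the depth of the wild-type data. Reads and background of each site were divided by 1.69, the reads were rounded to whole numbers, and the Poisson p was computed again. Of all 21 sites, 18 still reached the lowest −log10 p of the wild-type list, 3.79, against 92% of the whole double-knockout list. Of the 18 unpartnered sites 15 reached it, against 89.9% of all unshared double-knockout sites. Of the 8 PTPRT sites 7 reached it, and the exception was the site at 94.1 kb. The sites below it were that one, the PTPRU site at 20.6 kb and the PTPRE site, with scaled values of 3.50, 3.46 and 2.45. All 4 PTPRS sites reached it, with 4.46 to 8.69. The scaled reads are expected values without counting noise, and a site of 7 or 8 expected reads can fall short through counting error alone.

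**Figure D4:**
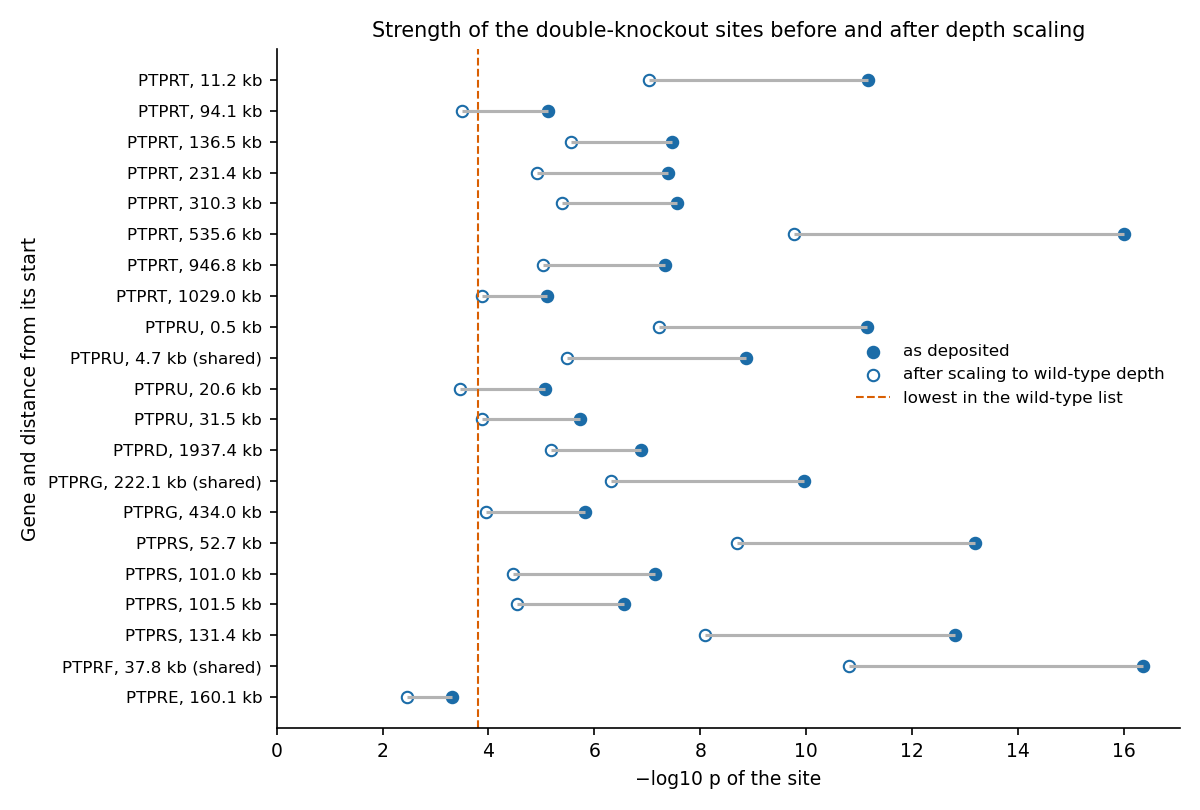
The −log10 p (horizontal axis) of each of the 21 double-knockout sites, named by gene and distance from its start, as deposited (filled) and after reads and background were scaled to wild-type depth (open), with the lowest value of the wild-type list, 3.79, as a dashed line. The open circles of 18 sites lie to the right of the line, and those of 1 site each in PTPRT, PTPRU and PTPRE to its left.

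By median the double-knockout sites in the 9 genes were weaker than their list, whereas the 3 wild-type sites all exceeded the median fold of theirs. The 21 double-knockout sites had folds of 2.29 to 7.76, median 4.68, against a list median of 4.93, and 8 of them exceeded it. Their reads were 8 to 28, median 15, against 17 in the list, and their widths 263 to 1534 bp, median 386 bp, against 409 bp. Their median −log10 q was 4.37, against 5.88 in the list. The 3 wild-type sites had folds of 5.29, 7.05 and 8.04, all above that list's median of 5.12. None of the 24 sites lay inside another annotated gene, antisense transcripts included. Whether they fall in exons or introns was not analysed here.

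Of 10 other classical receptor-type phosphatase genes, PTPRA, PTPRB, PTPRC, PTPRH, PTPRJ, PTPRN, PTPRO, PTPRQ, PTPRR and PTPRZ1, only PTPRA held a site, 1 in the double knockout. The 10 genes are 19.8 to 283 kb long. Of all protein-coding genes 5.88% held a wild-type and 14% a double-knockout site, and of those of at least 100 kb 16.2% and 36.3%. In none of the 10 would the chromosome give more than 0.917 double-knockout sites, or the 5 Mb on either side more than 0.561. These are values of single genes. The number expected in the 10 genes together was not computed, so whether their 1 site is few is not shown. PTPRN2 held 24 wild-type and 29 double-knockout sites in 1049 kb, more than the 9 genes together in either list. PTPRT, of nearly the same length, had 0 and 8. The 2 genes differ in position, with PTPRN2 0.648 Mb and PTPRT 21.1 Mb from the end of the annotated span of their chromosomes. The 5 Mb on either side would give 9.47 wild-type and 14.5 double-knockout sites in PTPRN2, and 2.90 and 9.38 in PTPRT. Whether position accounts for the difference was not tested.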

How the data were processed

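Sites of thymidine glycol were mapped by DPC-Seq in HEK293T cells of 2 genotypes. The submitters' processing notes name build hg38 and the tools Bowtie2, MACS2, deepTools and bedtools, without versions or settings. The authors deposited 1 list per genotype, in which the score is 10 times −log10 q rounded down, and also the fold enrichment (a ratio over the caller's background), −log10 p and −log10 q at the summit. The way in which both libraries entered a list is not given in the sources used here, and total reads per library are unknown. The largest q was 0.0450 for wild type and 0.0489 for the double knockout.

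Whole reads and background were recovered from fold and p, with fold read as (reads + 1) / (background + 1) and p as the upper Poisson tail beyond that read number. The deposited −log10 p was met within 0.001 at 100% of sites. Sites were assigned by midpoint to RefSeq gene bodies (GRCh38.p14, the primary coordinates of hg38). Positions are counted from 1. Expected numbers assume an even rate and were not corrected for the uneven copy number of HEK293T. Poisson and Clopper-Pearson intervals are exact at 95% and cover counting error only, since amplified reads are not independent molecules. Recovery, assignment and overlap were tested on simulated data. Alternatives were other assignments, thresholds, rates, overlaps and scalings. Every gene of the 9 was named. Of 10 other family genes those with a site were given values, and of neighbouring genes those with a site were named, apart from 1 result that is not reported here. Up to 3 genes most like PTPRT were named by double-knockout sites among genes with 0 wild-type sites. The members, lists and length classes were chosen with earlier results of these data known. Python 3.11.15, pandas 2.3.3 and scipy 1.17.1 were used.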

Additional observations from a re-analysis of the deposited data

How the results depend on the processing

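No paired analysis was possible because each genotype has 1 list with no replicate columns, and for the same reason no library could be left out in turn. With only sites of fold enrichment of at least 5, the 9 genes held 7 double-knockout sites. Without PTPRT, an alternative chosen after seeing the data, the other genes held 13. The other values, under assignment by any overlap, gene bodies extended by 10 kb, q below 0.001, at most 1 site per 10 kb, other rates, other overlaps and other scalings, stayed within 1.5 times for counts and within the counting interval for ratios and shares. These intervals are wide because few sites fall in the 9 genes, so they limit little. The wild-type ratio of sites to expected ran from 0.369 to 0.688 over its alternatives and the double-knockout ratio from 0.706 to 1.17.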
